A study of Homo sapiens with 4 samples.

Results

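The genes of the proteasome were followed in LN229 glioblastoma cells after knockdown of SOX2. Members were chosen by symbol alone, as the gene probes whose symbol was PSMA, PSMB, PSMC, PSMD, PSME or PSMF followed by a digit, without the immunoproteasome genes PSMB8 and PSMB9. On each array 51 of 33096 gene probes met this rule. They carried 42 symbols, of which 41 were genes and the other, PSMD4P2, is a pseudogene that RefSeq now calls PIPSL. Averaging probes by Celera gene ID gave 44 of 27739 features, and 43 of these 44 were among the 18378 features kept, for which 1 group or both had a signal-to-noise ratio over 3 on each of its arrays. All 43 exceeded 3 on all 4 arrays.

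LN229 is an established human glioblastoma line that grows in culture. Cells received siRNA against SOX2, a transcription factor of neural stem cells and gliomas, or a control siRNA with no target (mock knockdown), and each group had 2 arrays from separate transfections of the same line. Total RNA was measured on Applied Biosystems Human Genome Survey arrays, which hold 1 sample each. The knockdown was transient and in 1 line. In bulk RNA fewer cells expressing a gene and less RNA per cell cannot be told apart.

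The labels give LN229 as the cell line, but their treatment text refers to SW620, which derives from a colon cancer. Of 6 glial or mesenchymal markers, 5 had a signal-to-noise ratio over 3 on all 4 arrays, and their summed scaled signal was 140 and 178 in mock knockdown and 143 and 134 in SOX2 knockdown. Of the 140 on mock replicate 1, SPARC gave 71.5, VIM 50.1 and NES 0.523, and FN1 passed on only 2 arrays. Of 8 colon epithelium markers, 6 passed on at least 1 array, VIL1 alone passed on all 4, and CDH1 and KRT20 passed on none. The summed signal of the 8 lay between 0.201 and 0.350. Scaled signal is the deposited signal divided by the 75th percentile of the features on that array. SOX2 itself had scaled signals of 0.454 and 0.682 in mock knockdown and of 0.204 and 0.145 in SOX2 knockdown, a log2 change of -1.69 ± 0.28 (SE, n = 2 per group, limma, adjusted p = 0.114).

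The proteasome degrades proteins that carry ubiquitin chains. Its 20S core is a barrel whose outer rings are alpha subunits and whose inner rings are beta subunits, some of which cut peptide bonds. The 19S particle caps the barrel, recognises and unfolds substrates with a ring of ATPases, and removes ubiquitin, while activators of the PSME family open the core without ubiquitin. When proteasome capacity falls, the transcription factor NFE2L1 raises subunit genes together through antioxidant response elements in their promoters, and interferons induce an immunoproteasome with exchanged beta subunits.

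Promoters of 6 members are shown, each as the 250 bases before the gene's start (RefSeq, GRCh38.p14), because they are the promoters of the lowest and one of the highest changes and of interferon-inducible members. PSME1 lies at chr14:24135944-24136193 (plus strand), PSMD3 at chr17:39980557-39980806 (plus strand), PSMD12 at chr17:67366578-67366827 (minus strand), PSME2 at chr14:24146611-24146860 (minus strand), PSMB10 at chr16:67936851-67937100 (minus strand) and PSMD14 at chr2:161308175-161308424 (plus strand). Capitals mark the core of the antioxidant response element, TGACNNNGC, and the core of the interferon-stimulated response element, GAAANNGAA. PSMD14 holds neither.
PSME1: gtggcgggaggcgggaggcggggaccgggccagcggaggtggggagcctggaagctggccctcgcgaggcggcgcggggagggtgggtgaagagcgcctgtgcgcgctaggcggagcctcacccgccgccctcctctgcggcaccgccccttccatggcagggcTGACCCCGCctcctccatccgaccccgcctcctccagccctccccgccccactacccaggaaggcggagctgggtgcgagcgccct
PSMD3: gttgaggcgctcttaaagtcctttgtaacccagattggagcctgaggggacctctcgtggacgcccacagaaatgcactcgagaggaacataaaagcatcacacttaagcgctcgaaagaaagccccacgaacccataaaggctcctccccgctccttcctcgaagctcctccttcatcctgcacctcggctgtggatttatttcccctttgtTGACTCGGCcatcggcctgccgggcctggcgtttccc
PSMD12: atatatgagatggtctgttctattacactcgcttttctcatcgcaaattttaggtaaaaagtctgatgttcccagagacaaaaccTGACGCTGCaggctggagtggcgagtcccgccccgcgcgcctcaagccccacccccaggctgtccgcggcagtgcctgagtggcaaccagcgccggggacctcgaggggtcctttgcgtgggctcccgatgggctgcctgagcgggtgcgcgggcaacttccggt
PSME2: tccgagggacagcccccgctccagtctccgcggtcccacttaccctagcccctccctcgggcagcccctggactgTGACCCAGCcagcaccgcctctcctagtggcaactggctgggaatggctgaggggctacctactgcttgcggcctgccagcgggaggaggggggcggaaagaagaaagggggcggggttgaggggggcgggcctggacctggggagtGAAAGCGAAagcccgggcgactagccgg
PSMB10: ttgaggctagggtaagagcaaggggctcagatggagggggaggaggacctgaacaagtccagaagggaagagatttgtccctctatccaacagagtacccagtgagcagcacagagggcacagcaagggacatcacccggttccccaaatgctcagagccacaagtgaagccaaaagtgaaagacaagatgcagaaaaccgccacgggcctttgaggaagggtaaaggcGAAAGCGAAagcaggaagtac
PSMD14: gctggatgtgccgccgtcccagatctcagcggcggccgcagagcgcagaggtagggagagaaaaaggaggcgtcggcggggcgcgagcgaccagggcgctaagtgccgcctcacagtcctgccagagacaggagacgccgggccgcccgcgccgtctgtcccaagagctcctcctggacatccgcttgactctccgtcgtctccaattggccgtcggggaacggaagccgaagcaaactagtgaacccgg

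Of the 40 genes with a kept feature, 35 had a promoter in the RefSeq table. Both strands were searched for 6 short motifs. TGACNNNGC stood in 8 of 35 members (22.9%), PSMB3, PSMD3, PSMD5, PSMD9, PSMD12, PSME1, PSME2 and PSME4, and in 10.9% of all 35116 promoters. The interferon motif stood in 4 of 35 (11.4%, against 6.88% of all), namely PSMA4, PSMB4, PSMB10 and PSME2. The CCAAT box stood in 42.9% of members and 32.0% of all, the cyclic AMP response element core TGACG in 22.9% and 21.2%, and the nuclear respiratory factor core GCGCANGC in 17.1% and 10.4%. The SOX core ACAAT stood in 17.1% of members and 24.6% of all. TGACG can overlap TGACNNNGC, as it does in PSMD12. A match in these letters is a description of the sequence and not a bound site.

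No proteasome gene passed a threshold of fold or of p. Between SOX2 knockdown and mock knockdown, 0 of 43 features differed by 2-fold in the means of the replicates (2.38% of all features did), and 0 differed by 1.5-fold (9.86% of all). By limma, 0 of 43 passed an adjusted p of 0.05, as did 0 of all 18378 features (0%). At an unadjusted p under 0.05 the count was also 0 of 43, where 17.2% of all features passed. The smallest unadjusted p among members was 0.0514, for PSME1, with an adjusted p of 0.295.

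The log2 changes of the 43 features ran from -0.38 for PSMD3 to 0.26 for PSMC3, with 19 above 0 and 24 below 0. Counted once per gene by its brightest feature, 19 of 40 genes were above 0 and 21 below. The median over the 43 features was -0.03, beside 0.002 for all features, and the median size of a change was 0.13, beside 0.19 for all features. For 42 of 43 members the 95% interval lay within 2-fold in either direction, which held for 79.5% of all features. The exception was PSMD3, whose interval ran from -1.04 to 0.28.

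**Figure D1:**
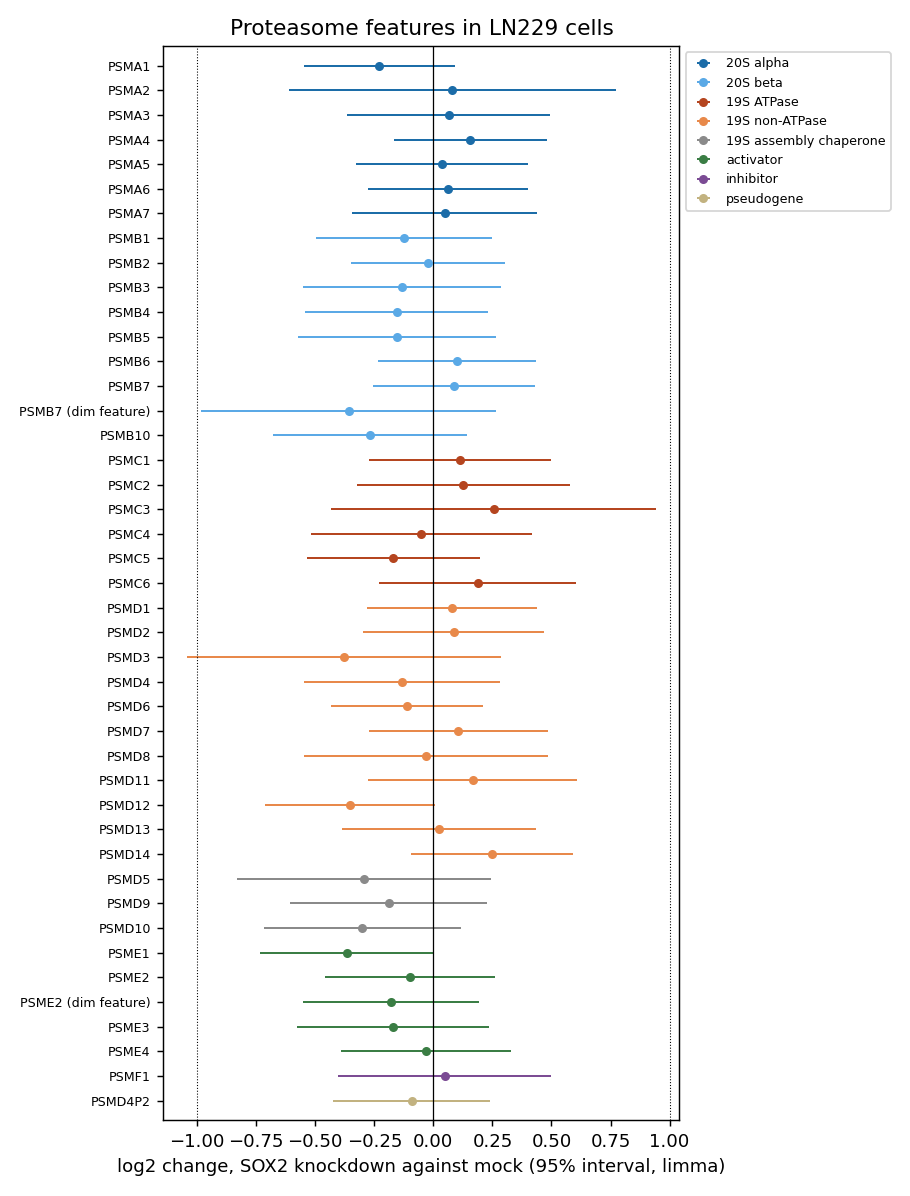
Log2 change of each of the 43 kept proteasome features, SOX2 knockdown against mock knockdown (x axis), with the 95% interval from limma as a bar (n = 2 arrays per group) and colours for the classes. Dotted lines mark 2-fold, and every point lies between -0.38 and 0.26.

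**Figure D2:**
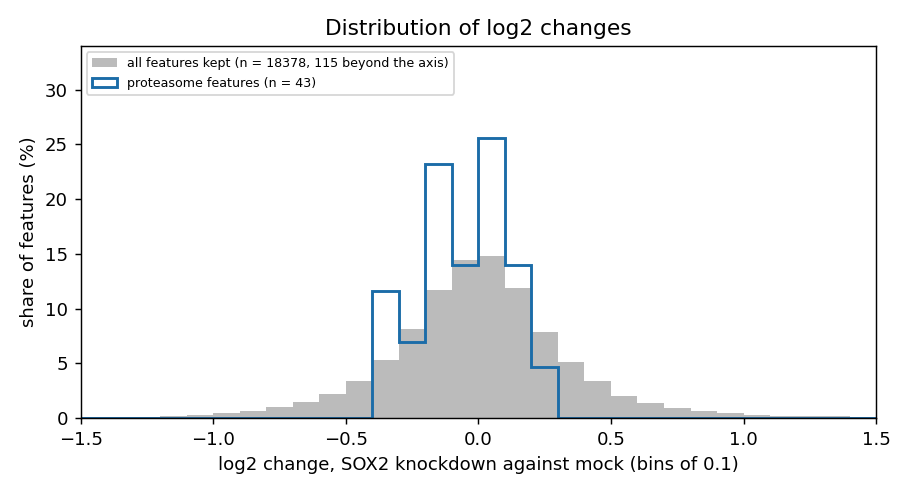
Share of features (y axis, %) in bins of log2 change (x axis) for the 43 proteasome features (line) and all 18378 kept features (grey), of which 115 lie beyond the axis. The proteasome features fall between -0.38 and 0.26, and the grey distribution extends past both ends.

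The arrays of the 2 groups separated without overlap for 3 features that were higher in SOX2 knockdown, PSMA4, PSMB6 and PSMD14 (6.98%), against 21.6% of all features. They separated for 11 features that were lower (25.6%), against 25.7% of all. The remaining 29 features overlapped. The share of lower features was thus near that of the array as a whole, and the share of higher features was below it. The lower features included the pseudogene PSMD4P2 and the dimmer feature of PSMB7 and of PSME2, whose brighter features overlapped. Counted once per gene by its brightest feature, 8 of 40 genes were lower, 3 were higher and 29 overlapped.

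Among the alpha subunits of the 20S core, which form its gate, 7 of 8 genes were measured and had log2 changes from -0.23 to 0.16 (median 0.06), 6 of them above 0. PSMA4 had scaled signals of 11.9 and 11.5 in mock knockdown and of 13.2 and 12.9 in SOX2 knockdown (log2 change 0.16 ± 0.12, SE). PSMA1 had 7.19 and 6.96 in mock knockdown and 6.02 and 6.05 in SOX2 knockdown (-0.23 ± 0.12). Both SOX2 knockdown arrays were above both mock arrays for PSMA4 and below both for PSMA1, with limma adjusted p of 0.618 and 0.437. The PSMA7 feature averages its own probe with 2 probes of TIMM50, a mitochondrial import gene, and the PSMA7 probe alone had 13.8 and 16.1 against 16.3 and 14.4 (0.04 ± 0.16). The testis alpha subunit PSMA8 was listed at 0.0193 and 0.0212 in mock knockdown and at 0.0188 and 0.01 in SOX2 knockdown, not well above background on any array, and was not tested.

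The beta subunits of the core were measured for 8 of 8 genes, with changes from -0.27 to 0.10 (median -0.13), 6 of them below 0. PSMB5, the chymotrypsin-like protease, had 6.08 and 7.47 in mock knockdown and 5.95 and 6.16 in SOX2 knockdown (-0.15 ± 0.16). PSMB6, the caspase-like protease, had 5.14 and 5.55 against 5.72 and 5.73 (0.10 ± 0.12). PSMB7, the trypsin-like protease, had 12.9 and 13.9 against 14.7 and 13.8 (0.09 ± 0.13). For PSMB5 and PSMB7 the groups overlapped, and the value of PSMB5 was -0.0059 without mock replicate 2 and -0.302 without mock replicate 1. A second, dim feature of PSMB7, which averages a PSMB7 probe with an unnamed probe near the floor, had 0.0754 and 0.0728 against 0.047 and 0.0711 (-0.36 ± 0.23), and its PSMB7 probe alone gave 0.135 and 0.134 against 0.0868 and 0.127.

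PSMB10, which takes the place of PSMB7 in the immunoproteasome, had 0.331 and 0.400 in mock knockdown and 0.314 and 0.291 in SOX2 knockdown (-0.27 ± 0.15, limma adjusted p = 0.479). Its gene ID also holds a probe of CTRL, a neighbouring protease gene, and the PSMB10 probe alone gave 0.539 and 0.680 against 0.509 and 0.471 (-0.31 ± 0.17). Both SOX2 knockdown arrays lay below both mock arrays either way.

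The ATPases of the 19S base, PSMC1 to PSMC6, had changes from -0.17 to 0.26 (median 0.12), 4 of 6 above 0. PSMC3 had 1.82 and 2.76 in mock knockdown and 2.41 and 2.98 in SOX2 knockdown (0.26 ± 0.26), and its value became -0.05 without mock replicate 1. PSMC5 had 7.15 and 8.23 against 6.83 and 6.82 (-0.17 ± 0.14). The mock arrays differed from each other by more than the groups did for PSMC3.

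The 11 non-ATPase subunits of the 19S particle had changes from -0.38 to 0.25 (median 0.02), 6 above 0. PSMD14, the deubiquitinase of the lid, had 8.99 and 9.90 in mock knockdown and 11.3 and 11.1 in SOX2 knockdown (0.25 ± 0.13, limma adjusted p = 0.429). PSMD4, a receptor for ubiquitin chains, had 4.25 and 5.21 against 4.35 and 4.23 (-0.13 ± 0.15), and its value became 0.01 without mock replicate 2. The groups were separate for PSMD14 and overlapped for PSMD4. PSMD3, a scaffold of the lid, had 2.54 and 2.26 against 2.29 and 1.49 (-0.38 ± 0.25), with a signal-to-noise ratio down to 3.38, the lowest of any kept member. Its value rested on 1 array, at -0.068 without SOX2 knockdown replicate 2 and at -0.691 when the other knockdown array was left out. PSMD12, another lid subunit that was picked out after its values were seen, had 2.41 and 2.11 against 1.77 and 1.76 (-0.35 ± 0.13, limma adjusted p = 0.301). The non-ATPase subunits spanned the widest range of the classes.

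PSMD5, PSMD9 and PSMD10 carry the names of 19S subunits but act as chaperones in the assembly of the base. All 3 had values below 0 (median -0.29), and none passed an unadjusted p of 0.05. PSMD5 had 0.342 and 0.412 in mock knockdown and 0.352 and 0.266 in SOX2 knockdown (-0.29 ± 0.20). PSMD9 had 0.146 and 0.133 against 0.111 and 0.134 (-0.19 ± 0.16). PSMD10, also known as the oncoprotein gankyrin, had 1.15 and 1.34 against 1.08 and 0.936 (-0.30 ± 0.16). Only PSMD10 had groups that did not overlap.

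The 4 activator genes had values from -0.37 to -0.03 (median -0.14), all below 0. PSME1 and PSME2 encode the interferon-inducible ring that opens the core in antigen processing. PSME1 had 4.92 and 5.53 in mock knockdown and 4.22 and 3.88 in SOX2 knockdown (-0.37 ± 0.14). PSME2 had 11.2 and 12.3 against 11.5 and 10.5 (-0.10 ± 0.13), and its separate dim feature had 0.247 and 0.250 against 0.204 and 0.237 (-0.18 ± 0.14). PSME1 was the lowest of the activators and had separate groups, whereas the main feature of PSME2 overlapped. PSME3, the nuclear activator, had 2.43 and 2.86 against 2.47 and 2.22 (-0.17 ± 0.15). PSME4, an activator with roles in histone turnover, had 1.33 and 1.41 against 1.42 and 1.26 (-0.03 ± 0.13), and its value was 0.01 without mock replicate 2 and 0.05 without SOX2 knockdown replicate 2. PSMF1, which inhibits the core in vitro, had 11.5 and 14.7 against 13.6 and 13.3 (0.05 ± 0.17), and its value was -0.13 without mock replicate 1.

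The pseudogene feature PSMD4P2, which also holds a probe of PIP5K1A, had 4.25 and 4.58 in mock knockdown and 4.18 and 4.10 in SOX2 knockdown (-0.09 ± 0.12). The pseudogene derives from PIP5K1A and PSMD4, whose sequence it shares, so its reading is uncertain and it was counted among the features and not among the genes. Of the genes read by several probes, the 3 PSME2 probes of the main feature gave ratios of 0.958, 0.915 and 0.885, and the 2 PSMC5 probes gave 0.863 and 0.932. The 2 PSMF1 probes gave 1.03 and 1.01, and 3 of the 4 PSMC1 probes gave 1.01, 1.20 and 0.996, the remaining one being not well above background on any array.

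The classes were then compared. The median log2 change was 0.04 over 15 of 16 genes of the 20S core and 0.08 over 17 genes of the 19S particle, so the 20S core was lower by a log2 difference of -0.04. On single arrays this difference was 0.02 and -0.02 in mock knockdown and -0.004 and -0.05 in SOX2 knockdown, relative to the mean of the mock arrays. The difference turned to 0.04 once the assembly chaperones were counted with the 19S genes, and without mock replicate 1 the medians were -0.07 for the 20S and -0.05 for the 19S genes. The order of core and cap thus turned with the members counted in the cap, whereas without mock replicate 1 the difference was -0.026, in the same direction. The activators lay -0.17 below the 20S and -0.21 below the 19S median. Array by array the gap to the 20S was -0.145 and -0.170 after SOX2 knockdown, and 0.003 and -0.003 after mock knockdown. Here and for the 20S minus 19S difference, the mock values mirror each other by construction, as each gene was centred on the mock mean. The activator median itself overlapped between groups, at -0.076 and 0.076 in mock knockdown and -0.063 and -0.207 in SOX2 knockdown. The activator median of -0.135 was -0.041 with normexp background correction. It ranged from -0.227 to -0.043 as each array was left out, the weakest value coming without mock replicate 2, and leaving out the second SOX2 knockdown array gave -0.063. Genes are not replicates, and no test was made of these differences.

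**Figure D3:**
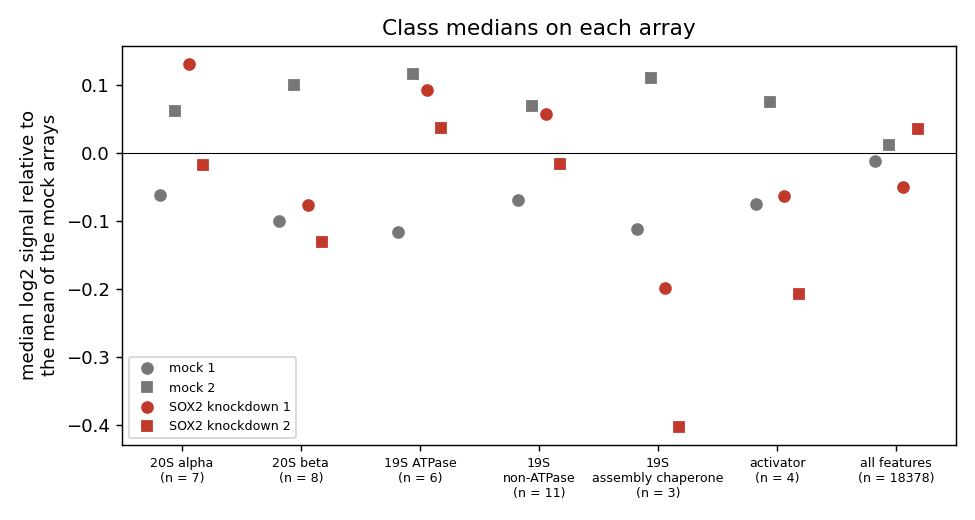
Median log2 signal of each class on each array relative to the mean of the mock arrays (y axis), with grey for mock knockdown and red for SOX2 knockdown (n is the number of genes, or of features for all features). Of the classes drawn, the assembly chaperones alone have both red points below both grey ones, at -0.20 and -0.40.

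Replicates of 1 group differed in a way that most subunits shared. Mock replicate 2 was above mock replicate 1 in 81.4% of member features and 53.0% of all features, and SOX2 knockdown replicate 1 was above replicate 2 in 76.7% of members and 51.9% of all. For all subunits the median was -0.08 and 0.08 in mock knockdown and 0.07 and -0.05 in SOX2 knockdown, again relative to the mock mean. The 75th percentiles used for scaling moved with it, at 6.23 and 7.07 in mock knockdown and 6.91 and 6.12 in SOX2 knockdown. With no further scaling the median log2 change of all subunits was -0.029, beside 0.001 with it, and the 20S minus 19S difference stayed at -0.043. The part of the percentiles in the replicate difference was not tested.

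The interferon-inducible proteasome genes were set together with PSMB8 and PSMB9, immunoproteasome subunits that the choice of members left out. All 5 of 5 had values below 0 (median -0.30), and 1 of 5 passed an unadjusted p of 0.05, a threshold that 17.2% of all features passed. PSMB9 had 2.16 and 2.43 in mock knockdown and 1.67 and 1.57 in SOX2 knockdown (-0.50, limma unadjusted p = 0.0169, adjusted p = 0.192). PSMB8 had 1.44 and 2.57 against 1.52 and 1.61 (-0.30 ± 0.31), with overlapping groups.

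Among the transcription factors of proteasome genes and the enzymes that process them, 7 of 9 listed genes were kept, with 5 above 0 and 2 below (median 0.35), and 2 of 7 passed an unadjusted p of 0.05, both upward, beside 17.2% of all features. NFE2L3 had no probe, and DDI2 was not well above background on any array, so DDI1 was the only DDI gene counted. Of the 7, 5 had both SOX2 knockdown arrays above both mock arrays (21.6% of all features) and 1 had both below (25.7%). NFE2L2, the master regulator of the antioxidant response, had 5.88 and 6.44 in mock knockdown and 7.93 and 7.89 in SOX2 knockdown (0.36 ± 0.13, limma unadjusted p = 0.0408, adjusted p = 0.268). MAFF, a small MAF protein that pairs with NFE2L factors on DNA, had 1.45 and 1.54 against 1.99 and 1.95 (0.40 ± 0.12, limma unadjusted p = 0.0272, adjusted p = 0.228). NFE2L1 had a log2 change of 0.41 ± 0.16 and was named after its values were seen. The median over the 36 subunit genes was 0.001.

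**Figure D4:**
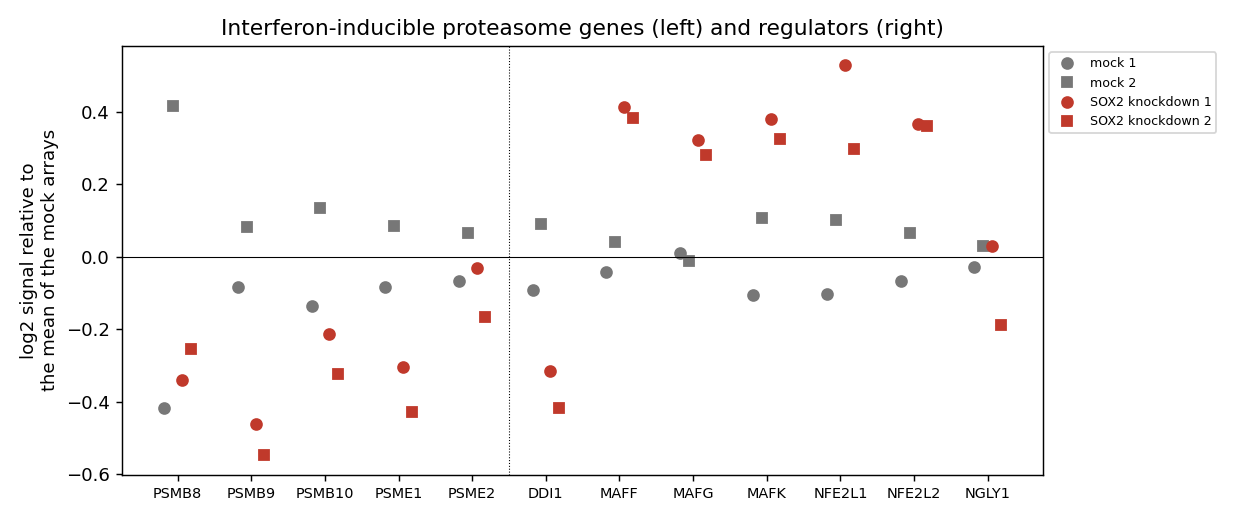
Log2 signal on each array relative to the mean of the mock arrays (y axis) for the interferon-inducible proteasome genes (left) and all kept transcription factors of proteasome genes and their processing enzymes (right), grey for mock knockdown and red for SOX2 knockdown. PSMB9, PSMB10, PSME1 and DDI1 have both red points below both grey ones, and MAFF, MAFG, MAFK, NFE2L1 and NFE2L2 have both above (the MAFG feature also holds a SIRT7 probe).

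Further partners of the proteasome were described by list. The 3 kept chaperones of 20S assembly had values from 0.02 to 0.11, and the 5 kept ubiquitin genes and activating enzymes had a median of 0.01, with 0 of 5 past an unadjusted limma p of 0.05. Of 7 proteasome-associated factors, 6 were above 0 and none passed. Of 9 shuttle factors and p97 segregase genes, 1 passed an unadjusted p of 0.05, beside 17.2% of all features. This was the ubiquitin shuttle UBQLN1, which had 0.510 and 0.562 in mock knockdown and 0.747 and 0.724 in SOX2 knockdown (0.46 ± 0.13, limma unadjusted p = 0.0202, adjusted p = 0.205).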

How the data were processed

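RNA of LN229 cells was measured on 4 arrays, 2 per group, described in the methods as biological replicates. Groups were taken from the source names and replicate numbers from the titles. The authors deposited scanner files with a normalized linear signal intensity, a signal-to-noise score and quality flags for each probe. A table processed by the authors holds a linear ratio per probe and array. The software version is not given in the sources used here. Probes with a flag of 5000 or more were left out (210 probes), probes of a Celera gene ID were averaged, each array was divided by its 75th percentile, values under 0.01 were set to 0.01, and features with a signal-to-noise ratio over 3 on both arrays of a group were kept. Log2 values were tested with limma 3.58.1 (lmFit and eBayes, two-sided) in R 4.3.3, with Benjamini-Hochberg adjustment over 18378 features. Arrays have no counting depth, and their number limits the precision. The script was tested on simulated data.

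The members, gene lists, motifs and tests were chosen with earlier results of these data known. Values were named for catalytic, inducible, activator, inhibitor, chaperone, receptor and deubiquitinase genes and for the highest and lowest member of each class, and for partner genes past 1.5-fold or an unadjusted p of 0.05. Where a gene had several features, the brightest stood for it in class medians. Promoter sequences came from RefSeq (GRCh38.p14), in which PSMA7, PSMB1, PSMB6, PSMB7 and PSMD4 were not matched. Alternatives covered scaling, background correction, the floor, the filter on dim probes, the averaging of probes, the variance model, pairing and leaving out each array.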

Additional observations from a re-analysis of the deposited data

How the results depend on the processing

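The count of proteasome features past 2-fold and past an adjusted limma p of 0.05 was 0 under every alternative run. The count at an unadjusted p under 0.05 was 0 and became 1 with quantile normalization and with normexp (PSME1 in both), 3 with a floor of 0.05 (PSMA1, PSMD12 and PSME1), 2 with signal-to-noise over 3 on all arrays and 2 with a variance trend (PSMD12 and PSME1 in both). The shares of all features under these settings were 16.7%, 14.98%, 20.3%, 17.8% and 17.7%, in that order. The 20S minus 19S median log2 change was -0.043 and became 0.039 with the assembly chaperones in the 19S class, -0.097 with normexp, -0.071 with no signal-to-noise filter and 0.012 with single probes. The value of PSME4 was -0.032 and became 0.033 with normexp. The cause of these moves was not tested.

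Leaving out each array in turn gave ranges of 0 to 1 for the unadjusted count (PSMD3 without SOX2 knockdown replicate 1 and the dim feature of PSMB7 without SOX2 knockdown replicate 2), -0.072 to 0.082 for the 20S median, -0.046 to 0.167 for the 19S median and -0.151 to -0.0042 for their difference. The ranges were -0.046 to 0.556 for PSMC3, -0.128 to 0.225 for PSMF1, -0.279 to 0.013 for PSMD4 and -0.117 to 0.053 for PSME4. With an array left out, the lone array was assumed to vary like the other group.

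Same-numbered arrays deviated in opposite directions (r = -0.50 over features). Arrays of unlike number (crossed pairs) gave r = 0.50, the same value mirrored by construction. The 75th percentiles of same-numbered arrays also deviated in opposite directions within their groups, and their part in r was not separated. Whether the numbers paired the samples was thus not tested. With the replicate block, 0 member features and 1647 of all features passed an unadjusted p of 0.05, against 3158 without it. The crossed pairing, chosen after seeing the data like the mean per gene ID and symbol, gave 4 member features and 4847 of all. Adjusted calls over all features rose from 0 to 666 with median scaling, 650 with no further scaling, 639 with the authors' table, 240 with a variance trend and 3 with signal-to-noise over 3 on all arrays. With median scaling, no further scaling and the authors' table, all member genes followed across settings had the same SE (0.283, 0.285 and 0.281). In the main run the SE differed by gene. These settings thus also changed the variance estimate, and the part of scaling in the rise was not tested.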

Other observations

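The 6 motifs divided the 35 members with a promoter as follows, given as a description with no test, since the values were known and the motifs overlap. All 8 members with the antioxidant response element core had log2 changes below 0 (median -0.24, from -0.38 to -0.03), and 11 of the 27 without it did (median 0.05). Of the 8, PSME1, PSME2, PSME4, PSMD5 and PSMD9 are activators or assembly chaperones. Every gene of those classes was below 0, also PSME3 and PSMD10, which lack the core, so motif and class cannot be told apart there. PSMB3, PSMD3 and PSMD12 belong to classes with values on both sides of 0. All 6 members with the SOX core, PSMA3, PSMC1, PSMC2, PSMD1, PSMD2 and PSMF1, were above 0 (median 0.08, from 0.05 to 0.13), and 10 of the 29 without it were. Each of these 6 changes was smaller than its SE (0.13 to 0.17), and the arrays of the groups overlapped for all 6. For the CCAAT box the counts below 0 were 8 of 15 with it and 11 of 20 without, for the cyclic AMP response element core 6 of 8 and 13 of 27, for the nuclear respiratory factor core 4 of 6 and 15 of 29, and for the interferon motif 3 of 4 and 16 of 31. No single member among these passed an unadjusted limma p of 0.05, and PSMF1 turned to -0.13 without mock replicate 1. PSME4, one of the 8 with the antioxidant core, turned to 0.033 with normexp, 0.0064 without mock replicate 2 and 0.053 without SOX2 knockdown replicate 2. PSMD3, also one of the 8, was -0.068 without SOX2 knockdown replicate 2 and -0.691 without replicate 1. Of the 8, only PSMD12 and PSME1 had groups that did not overlap, both lower in SOX2 knockdown, as were 25.7% of all features.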
